A study of Mus musculus with 5 samples.

Results

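Etv1, Onecut3, Hhex, Pdx1, Foxq1, Mnx1, Nr4a2, Fev and Lmx1a encode transcription factors that were picked for being restricted to subtypes of enteroendocrine cells (EECs), the hormone-releasing cells of the gut epithelium. They make up 9 of the 27998 genes of the droplet matrix, and all 9 are also among the 22042 genes of the bulk table. The members were selected on their measured levels in these same libraries, so their levels by cell group, and the difference between CCK+ and CCK- cells, are given as a description without a test. The feeding difference was not used by the rule that chose them, and it was tested. Earlier results of these data were known when the members were chosen. Small intestine epithelium of C57Bl/6J mice was studied in 2 ways. For the droplet library, tdTomato+ cells were sorted from 4 mice aged 6 weeks that carried Neurog3-Cre and R26-LSL-tdTomato, a combination that labels the descendants of Neurog3+ progenitors for good, and the cells of all 4 mice were pooled in 1 library with no other treatment. For the bulk libraries, tdTomato+ (CCK+) and tdTomato- (CCK-) cells were sorted from each of 6 mice aged 6 to 8 weeks that carried Cck-Cre and R26-LSL-tdTomato. Mice A, B and F were fasted overnight, whereas mice C, D and E were given Ensure, a liquid food, after the fast (refed), which gives 4 groups of 3 libraries. Fasted and refed mice carried the same alleles. Both sorts rest on Cre activity at any time in the history of a cell, so a tdTomato+ cell need not transcribe Neurog3 or Cck when it is sorted.

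EECs arise from crypt progenitors that pass through a stage marked by Neurog3, and each subtype then releases its own set of hormones. Cck encodes cholecystokinin, Gcg and Pyy encode the hormones of the distal gut that curb appetite, Gip encodes a hormone that boosts insulin release, Ghrl encodes ghrelin, Sst encodes somatostatin, and Tph1 encodes the enzyme with which enterochromaffin cells make serotonin. General endocrine factors such as Neurod1 act in nearly all of these cells, whereas other factors, such as those described here, are known for acting in some of them or in related cells of the pancreas and the brain.

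The droplet matrix was kept to cells with more than 1000 genes and under 10% of unique molecular identifiers (UMIs) on mitochondrial genes, which left 9451 cells with a median of 5984 UMIs. Each cell was placed by its UMIs per 10000 in the first of these groups whose limit it met. The Cck cells (1246) had Cck at 500 or more, the Tph1 cells (2492) had Tph1 at 10 or more, the Gip, Ghrl or Sst cells (321) had any of these hormones at 500 or more, and the rest (5392) met none. A level below is the sum of a gene's UMIs over a group per 10000 UMIs of that group, with its 95% Poisson interval. These intervals, and the Clopper-Pearson intervals of shares of cells, cover counting error only, since 1 library allows no test between groups. As endocrine marks, Chga stood at 12.4 UMIs per 10000 in the Cck cells, 106 in the Tph1 cells, 11.1 in the Gip, Ghrl or Sst cells and 3.59 in the rest, and Neurod1 stood at 8.93, 11.01, 3.11 and 0.435. The rest held 430 cells rich in granins, 42.1% of which had one of the 715 highest doublet scores, and was otherwise made up of cells with goblet (4003), enterocyte (293), tuft (210) or Paneth (126) genes and 330 remaining cells. Free RNA, taken from barcodes of 1 to 100 UMIs, is given as a background beside the results it touches.

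The members differed in how far their levels kept to endocrine groups, which describes the values they were chosen by. Counted against the 4962 cells of the rest without many granin UMIs, Etv1 was 97.1-fold higher in the Cck cells (95% interval 77.8 to 123), Onecut3 74.6-fold (61.0 to 92.2) and Nr4a2 19.2-fold (16.6 to 22.2). Lmx1a was 55.5-fold higher in the Tph1 cells (46.3 to 67.0), Fev 36.8-fold (30.1 to 45.4) and the sparse Mnx1 9.69-fold (5.80 to 16.6), and Hhex was 121-fold higher in the Gip, Ghrl or Sst cells (75.9 to 201). Some were raised in a second group too. In the Gip, Ghrl or Sst cells, Etv1 was 19.4-fold higher (14.2 to 26.5) and Nr4a2 13.6-fold (11.1 to 16.6). Onecut3 was 20.9-fold higher in the Tph1 cells (16.9 to 26.2) and Fev 21.9-fold in the Cck cells (17.7 to 27.3). The granin cells left out of these ratios held 31.0% of the Mnx1 UMIs of all kept cells, with 5.13% of the UMIs of all genes. Foxq1 and Pdx1 were not restricted to endocrine cells. Foxq1 was 3.24-fold higher in the Tph1 cells (3.05 to 3.45) and 0.429-fold as high in the Cck cells (0.369 to 0.495), and Pdx1 was 2.16-fold higher in the Gip, Ghrl or Sst cells (1.66 to 2.76) and 0.825-fold as high in the Cck cells (0.661 to 1.02).

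Promoters of the members are shown where the members moved with different cell groups. RefSeq (GRCm38.p6) gave a window of 250 bases before to 50 bases after a start for 7 members, Etv1 with 2 entries, and none for Onecut3 and Foxq1. The windows of Lmx1a (chr1:167689308-167689607, plus strand) and Fev (chr1:74885359-74885658, minus strand), both highest in the Tph1 cells, are followed by the first entry of Etv1 (chr12:38779832-38780131, plus strand), highest in the Cck cells, and by Hhex (chr19:37434591-37434890, plus strand), highest in Sst cells. Capitals mark matches, on either strand, to the motifs searched.
Lmx1a: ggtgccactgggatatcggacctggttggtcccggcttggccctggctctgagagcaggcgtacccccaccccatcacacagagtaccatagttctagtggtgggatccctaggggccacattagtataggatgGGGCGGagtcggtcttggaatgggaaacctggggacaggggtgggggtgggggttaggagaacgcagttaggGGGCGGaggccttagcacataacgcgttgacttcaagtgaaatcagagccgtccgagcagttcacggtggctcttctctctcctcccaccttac
Fev: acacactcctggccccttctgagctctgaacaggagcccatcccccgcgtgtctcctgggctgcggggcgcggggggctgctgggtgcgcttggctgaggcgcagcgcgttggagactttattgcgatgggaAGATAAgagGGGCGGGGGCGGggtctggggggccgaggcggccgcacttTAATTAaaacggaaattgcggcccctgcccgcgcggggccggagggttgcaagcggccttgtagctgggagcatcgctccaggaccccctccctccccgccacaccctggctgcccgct
Etv1: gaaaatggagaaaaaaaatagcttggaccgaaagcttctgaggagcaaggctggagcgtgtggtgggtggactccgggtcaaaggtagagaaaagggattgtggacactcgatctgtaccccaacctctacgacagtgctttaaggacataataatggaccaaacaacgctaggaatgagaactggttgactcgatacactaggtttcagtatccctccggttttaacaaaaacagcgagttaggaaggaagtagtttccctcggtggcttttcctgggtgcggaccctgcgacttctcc
Hhex: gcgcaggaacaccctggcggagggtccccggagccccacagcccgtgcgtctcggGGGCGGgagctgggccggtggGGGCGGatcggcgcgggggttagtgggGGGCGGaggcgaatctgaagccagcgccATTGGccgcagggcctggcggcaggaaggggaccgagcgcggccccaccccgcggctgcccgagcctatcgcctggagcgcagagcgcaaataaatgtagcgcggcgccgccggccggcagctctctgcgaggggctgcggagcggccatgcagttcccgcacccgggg
Of the 8 motifs, GGGCGG, the GC box, was in the windows of 5 of the 7 members and in 35.7% of all 32851 promoters, and CCAAT was in those of 3 members and in 37.4% of all. TAATTA, a core that homeodomain proteins bind, was in the window of Fev and in 5.29% of all promoters. AGATAA was likewise in that of Fev and in 11.2% of all, TATAAA was in those of 2 members and in 13.6%, and CAGATG in that of 1 member and in 17.2%. TGTTTAC and CCGGAA, in 3.65% and 14.9% of all promoters, had no match in these windows. The letters describe the windows and do not locate binding sites. CpG pairs ranged from 3 in the second entry of Etv1 to 52 in Nr4a2, against a median of 7 over all promoters, and the windows above held 12 (Lmx1a), 25 (Fev), 12 (Etv1) and 37 (Hhex). In GRCm38 the genes lie at chr12:38779380-38870484 (Etv1), chr10:80494835-80517276 (Onecut3), chr19:37434810-37440731 (Hhex), chr5:147269959-147275848 (Pdx1), chr13:31556134-31560976 (Foxq1), chr5:29473034-29478470 (Mnx1), chr2:57106830-57124003 (Nr4a2), chr1:74881509-74885419 (Fev) and chr1:167689237-167848741 (Lmx1a). All 9 are protein coding. Onecut3 shares its strand with the overlapping gene 2610034O05Rik, while Pdx1 and Foxq1 each overlap an antisense gene (Plut and A530084C06Rik), so reads in the overlaps can be uncertain.

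Etv1, Onecut3 and Nr4a2 were highest in the Cck cells. Etv1, an ETS-domain factor, stood at 1.88 UMIs per 10000 there (1.79 to 1.98), at 0.376 (0.300 to 0.465) in the Gip, Ghrl or Sst cells, at 0.0803 (0.0633 to 0.1003) in the Tph1 cells and at 0.0297 (0.0249 to 0.0351) in the rest. Its free RNA was 0.139 (0.0927 to 0.202), above the level of the rest, and the interval of free RNA meets that of the Tph1 cells. The 97.1-fold ratio was taken against the rest without granin cells, whose level was lower still. These held 83 of the 137 Etv1 UMIs of the rest. The Cck cells held 83.8% of its 1850 UMIs in kept cells, with 12.4% of the UMIs of all genes. An Etv1 UMI was found in 61.6% of Cck cells (58.8 to 64.3%) and, after cells were thinned to 2000 UMIs, in 30.7% (28.2 to 33.4%), against 0.464% (0.300 to 0.684%) of the rest. The 58 cells under 2000 UMIs, all of them Tph1 cells, are left out of thinned shares. Onecut3, a factor with a cut domain and a homeodomain, stood at 1.78 (1.69 to 1.87) in the Cck cells and came next in the Tph1 cells, at 0.499 (0.456 to 0.546). Its levels of 0.0797 (0.0472 to 0.126) in the Gip, Ghrl or Sst cells and 0.0336 (0.0285 to 0.0393) in the rest were lower than its share of free RNA, 0.169. Nr4a2, an orphan nuclear receptor that cells also induce on stimulation, stood at 1.08 (1.01 to 1.15) in the Cck cells and at 0.761 (0.652 to 0.884) in the Gip, Ghrl or Sst cells, but only at 0.151 (0.128 to 0.178) in the Tph1 cells and 0.0702 (0.0628 to 0.0783) in the rest, both below its free RNA of 0.199. Within 1 gene, each of these neighbors in order was separated by more than its counting interval.

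**Figure D1:**
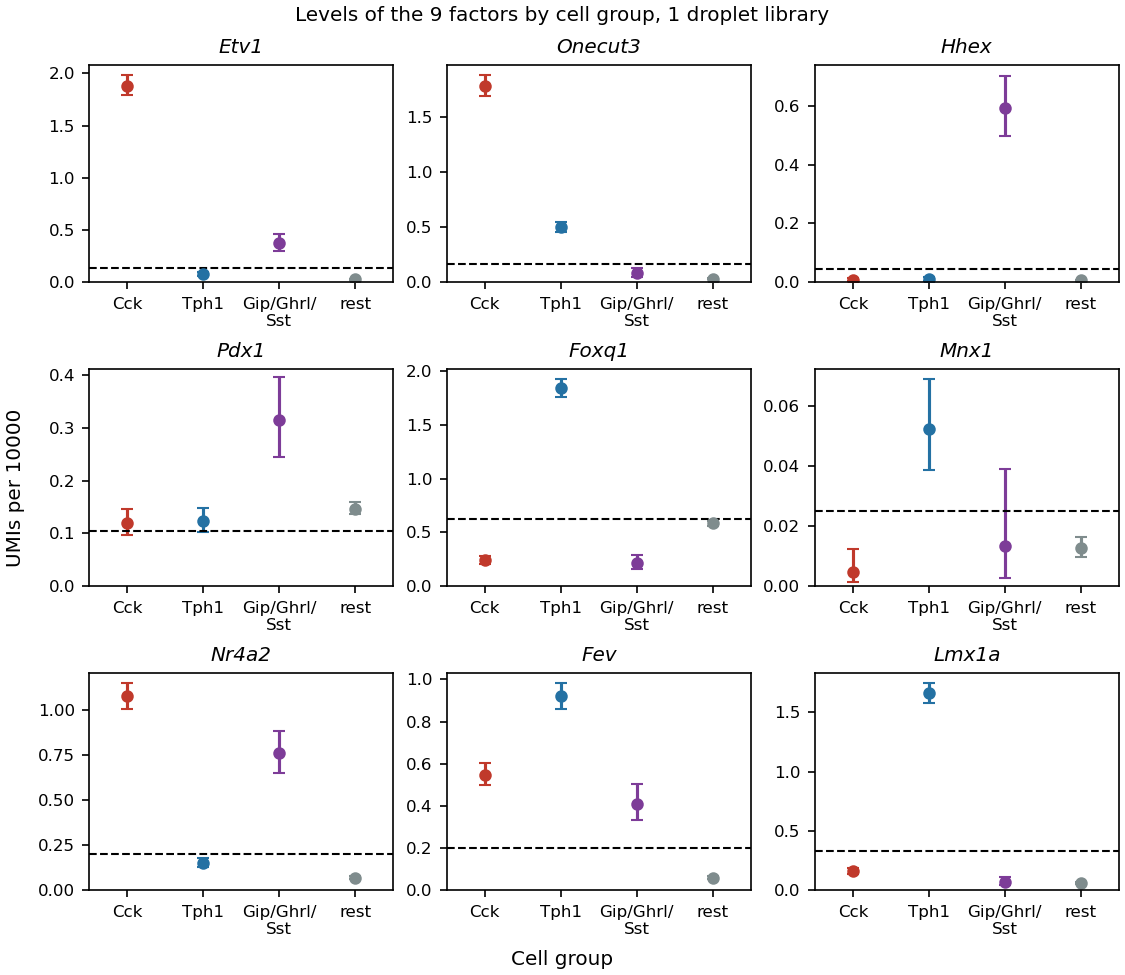
UMIs per 10000 (y axis, linear from 0) of the 9 genes in the 4 cell groups (x axis) of the single droplet library; points are pooled levels, bars are 95% Poisson intervals for counting error, and the dashed line is the level in free RNA. Etv1, Onecut3 and Nr4a2 were highest in the Cck cells, Foxq1, Mnx1, Fev and Lmx1a in the Tph1 cells, and Hhex and Pdx1 in the Gip, Ghrl or Sst cells.

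The 3 factors that were highest in the Cck cells did not share their distribution among these cells. Cck cells were split at 10 UMIs per 10000 of Gcg or Pyy, giving 527 cells with and 719 cells without either hormone, at medians of 6085 and 6431 UMIs. Nr4a2 was 2.68-fold higher (2.34 to 3.09) in the cells with Gcg or Pyy, at 1.72 against 0.641 UMIs per 10000, and Etv1 was 1.55-fold higher (1.40 to 1.71), at 2.39 against 1.54. Onecut3 went the other way and was 0.464-fold as high (0.411 to 0.524), at 1.05 against 2.27. In thinned cells, an Onecut3 UMI was found in 13.9% of cells with Gcg or Pyy (11.02 to 17.1%) and in 38.1% of those without (34.5 to 41.8%). The cells with a high doublet score made up 11.8% of the first kind and 14.5% of the second. Among cells of the other hormones, Nr4a2 was at 1.07 (0.870 to 1.30) in the 135 Gip cells and 0.632 (0.493 to 0.797) in the 151 Ghrl cells, and had 0 UMIs in the 35 Sst cells (95% interval up to 0.193). Etv1 was at 0.561 (0.431 to 0.717) in the Ghrl cells and 0.222 (0.138 to 0.340) in the Gip cells. The Gip and Ghrl cells here are only those that met neither the Cck nor the Tph1 limit. In all, 197 kept cells met the Gip limit and 350 the Ghrl limit.

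Lmx1a, Fev, Foxq1 and Mnx1 were highest in the Tph1 cells. Lmx1a, a LIM-homeodomain factor known to promote Tph1 in enterochromaffin cells, stood at 1.66 UMIs per 10000 (1.58 to 1.74) in the Tph1 cells, which held 78.5% of its 2031 UMIs with 14.5% of the UMIs of all genes. It followed at 0.160 (0.134 to 0.190) in the Cck cells, 0.0708 (0.0405 to 0.115) in the Gip, Ghrl or Sst cells and 0.0626 (0.0556 to 0.0703) in the rest, all below its free RNA of 0.334, and the last 2 did not differ beyond their intervals. The Lmx1a of Cck cells lay largely in cells that passed the Tph1 limit too, since it stood at 0.520 (0.420 to 0.637) in the 268 cells over both limits and at 0.0605 (0.0430 to 0.0827) in the 978 others. Of these 268 cells, 28.4% were among the highest doublet scores, against 9.20% of the 978, and the part of doublets was not tested.

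Fev, an ETS-domain factor best known from serotonin neurons, was spread more widely over EECs. It stood at 0.920 (0.861 to 0.983) in the Tph1 cells, 0.549 (0.4996 to 0.602) in the Cck cells, 0.412 (0.332 to 0.504) in the Gip, Ghrl or Sst cells and 0.0591 (0.0523 to 0.0666) in the rest, with 0.199 in free RNA. The second and the third of these had intervals that meet. Unlike Lmx1a, Fev was no lower in Cck cells that missed the Tph1 limit (0.566, 0.510 to 0.628) than in those over both (0.486, 0.390 to 0.6001). The share of cells with a Fev UMI was 29.0% in Cck cells and 26.5% in Tph1 cells, which run against the levels because the Tph1 cells were shallower (medians of 6296 and 3226 UMIs). At 2000 UMIs per cell the shares were 10.3% (8.64 to 12.1%) and 16.4% (14.98 to 18.0%).

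Foxq1, a forkhead factor, stood at 1.84 (1.75 to 1.93) in the Tph1 cells, 0.584 (0.562 to 0.607) in the rest, 0.243 (0.210 to 0.279) in the Cck cells and 0.217 (0.160 to 0.287) in the Gip, Ghrl or Sst cells, the last 2 of which did not differ beyond their intervals. Its free RNA was 0.628. Mnx1, a homeodomain factor known from motor neurons and the pancreas, was very sparse, with 116 UMIs in all kept cells. It reached 0.0521 (0.0387 to 0.0687) in the Tph1 cells, where 1.52% of cells held a UMI, and 0.0128 (0.00973 to 0.0165) in the rest, while the intervals of the Cck cells (0.00486, from 4 UMIs) and of the Gip, Ghrl or Sst cells (0.0133, from 3 UMIs) meet that of the rest. Free RNA held 0.0249 (0.00809 to 0.0581), an interval that meets that of the Tph1 cells. In the rest, 36 of the 59 Mnx1 UMIs lay in the 430 granin cells, at 0.106 (0.0741 to 0.147).

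A split of the Tph1 cells by Tac1, which encodes substance P, set these 4 factors apart. With a limit of 10 UMIs per 10000, 357 cells had Tac1 and 2135 did not, at medians of 3334 and 3194 UMIs. Fev was 3.03-fold higher (2.63 to 3.49) in the cells with Tac1, at 2.16 against 0.714 UMIs per 10000, and Mnx1 was 7.65-fold higher (4.22 to 14.0), at 0.205 against 0.0267 from 28 and 22 UMIs. Foxq1 was 0.361-fold as high (0.292 to 0.442), at 0.731 against 2.02. For Lmx1a the ratio was 1.05 (0.911 to 1.21), at 1.73 against 1.65, so that a difference larger than this interval was not seen. Onecut3, at 0.205 against 0.548, was lower in the Tac1 cells as well, with a ratio of 0.373 (0.245 to 0.547).

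**Figure D2:**
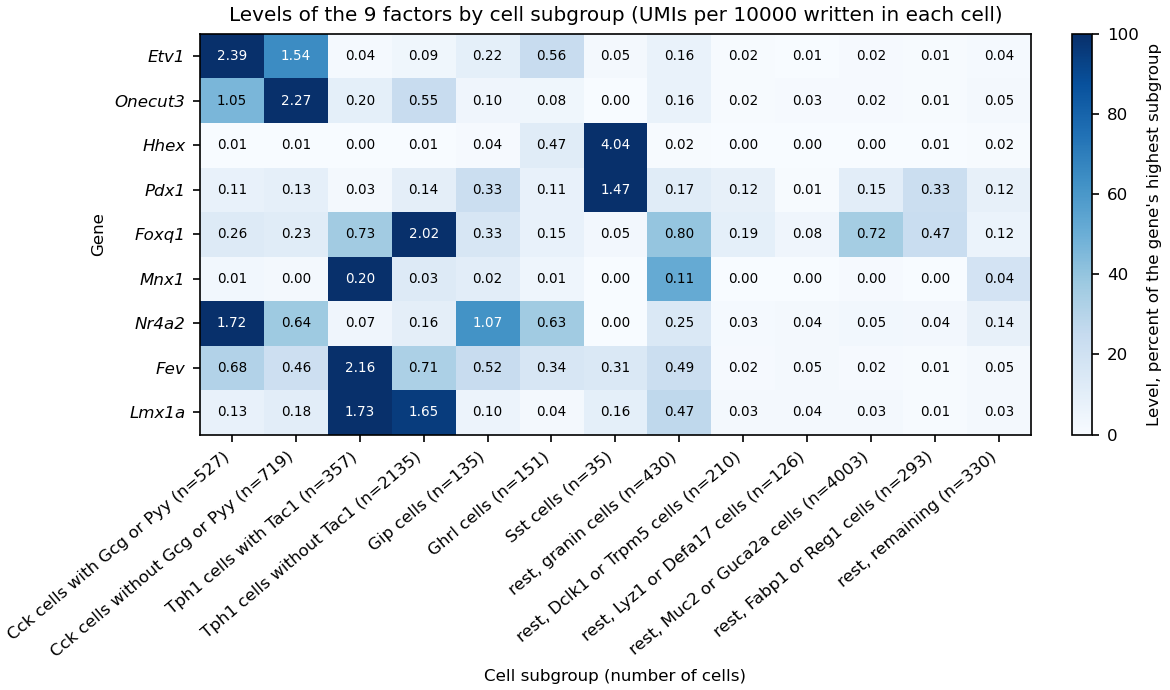
The 9 genes (rows) in 13 cell subgroups of the droplet library (columns, with the number of cells); the written numbers are UMIs per 10000 and the color is the level as a percent of the gene's highest subgroup. Hhex and Pdx1 peaked in the 35 Sst cells, Fev and Mnx1 in Tph1 cells with Tac1, Foxq1 in Tph1 cells without Tac1, Etv1 and Nr4a2 in Cck cells with Gcg or Pyy, and Onecut3 in Cck cells without them.

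Hhex was highest in the Sst cells, which held 43.0% of its UMIs with 0.288% of the UMIs of all genes. The rest held 16.2% of its UMIs, with 69.7% of the UMIs of all genes. The gene encodes a homeodomain factor that pancreatic delta cells, the somatostatin cells of the islets, need. Its level was 4.04 (3.19 to 5.04) in the 35 Sst cells, 0.472 (0.353 to 0.617) in the Ghrl cells and 0.0423 (0.0115 to 0.108) in the Gip cells, and 0.00729 (0.00267 to 0.0159), 0.0104 (0.00500 to 0.0192) and 0.00628 (0.00421 to 0.00902) in the Cck cells, the Tph1 cells and the rest, against 0.0448 in free RNA. The order of the limits had placed 17 cells with Sst at 500 or more among the Ghrl cells. In a split chosen after the values were seen, all 53 Hhex UMIs of Ghrl cells lay in these 17 cells, at 5.24 (3.93 to 6.86), while the other 134 Ghrl cells held 0 UMIs (95% interval up to 0.0361). Over all 60 cells with Sst at 500 or more, whatever else they made, Hhex stood at 4.04 (3.39 to 4.77) and 83.3% of cells held a UMI.

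Pdx1, a homeodomain factor of the pancreas and duodenum, was highest in the same cells but was not limited to them. It stood at 1.47 (0.975 to 2.12) in the Sst cells, 0.328 (0.223 to 0.466) in the Gip cells and 0.331 (0.266 to 0.407) in the 293 cells with the enterocyte genes Fabp1 or Reg1. The 4003 cells with the goblet genes Muc2 or Guca2a were at 0.150 (0.137 to 0.165), close to the Tph1 cells (0.124, 0.103 to 0.148) and the Cck cells (0.120, 0.0977 to 0.146), and the 126 cells with the Paneth genes Lyz1 or Defa17 were at 0.0115 (0.00312 to 0.0293). Free RNA was at 0.105. For Foxq1, the goblet-gene cells were at 0.716 (0.687 to 0.747), the enterocyte-gene cells at 0.471 (0.393 to 0.560), the tuft-gene cells (Dclk1 or Trpm5) at 0.188 (0.118 to 0.285) and the Paneth-gene cells at 0.0802 (0.0533 to 0.116). Levels of both genes thus differed among cells outside the endocrine groups by more than counting error.

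Cells on both sides of a limit held the members. In the 251 cells with Cck from 500 up to 1000 UMIs per 10000, Etv1 stood at 1.23 (1.07 to 1.40), Onecut3 at 1.47 (1.30 to 1.66) and Nr4a2 at 0.814 (0.688 to 0.957), and in the 89 cells with Cck from 250 up to 500 they stood at 0.899 (0.702 to 1.13), 0.759 (0.580 to 0.978) and 1.03 (0.814 to 1.27). In the 600 cells with Tph1 from 10 up to 20, Lmx1a was at 0.845 (0.751 to 0.947), Fev at 0.738 (0.650 to 0.834), Foxq1 at 1.0004 (0.898 to 1.11) and Mnx1 at 0.0807 (0.0536 to 0.117), and in the 427 cells with Tph1 from 5 up to 10 they were at 0.418 (0.348 to 0.498), 0.560 (0.479 to 0.652), 0.657 (0.568 to 0.755) and 0.0298 (0.0136 to 0.0567). Etv1, Onecut3, Lmx1a, Fev, Foxq1 and Mnx1 were thus lower just outside the limit than just inside, though the intervals of Etv1, Fev and Mnx1 meet, whereas Nr4a2 was not lower. The 89 cells just outside the Cck limit were taken whatever other hormone they made, and the part of other hormone groups was not tested. Near the Sst limit there were few cells. Hhex had 7 UMIs and Pdx1 1 UMI in the 6 cells just outside it, from 250 up to 500, and 0 and 3 UMIs in the 4 cells just inside, up to 1000. The limit on Tph1 is also low in UMIs, and 271 cells lay within 1 UMI of it. Free RNA held Tph1 at 6.15 UMIs per 10000, not far below this limit of 10. For Cck, Gip, Ghrl and Sst, each with a limit of 500, free RNA held 111, 67.6, 60.8 and 9.21. The part of free RNA in placing cells among the Tph1 cells, or over both limits, was not tested. The Tph1 cells were also the shallowest group, and 1686 of them fell below the UMI limit that Cell Ranger 2 sets for a cell. Lmx1a stood at 2.12 (1.99 to 2.26) in these 1686 cells and at 1.20 (1.10 to 1.30) in the 806 Tph1 cells over the limit, while Foxq1 was at 1.95 (1.82 to 2.08) and 1.73 (1.62 to 1.85) and Fev at 1.06 (0.966 to 1.15) and 0.784 (0.707 to 0.868). Chga moved the same way, at 133 and 79.5. High doublet scores were held by 1.66% of the shallow and 28.8% of the deep cells. The part of depth and of doublets in these differences was not tested.

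Several members were found together in a minority of cells. After thinning to 2000 UMIs, 65.7% of Cck cells (63.0 to 68.4%), 64.1% of Tph1 cells (62.1 to 66.0%) and 38.0% of Gip, Ghrl or Sst cells (32.7 to 43.6%) held a UMI of at least 1 member, against 18.4% of the rest (17.4 to 19.5%). At least 2 members were found in 24.8, 23.5, 8.41 and 1.26% of these groups. Across the 12 subgroups with 50 or more cells, whose points share 1 library, the members most alike in log2(UMIs per 10000 + 0.1) were Etv1 and Nr4a2 (Pearson r = 0.896), Fev and Lmx1a (0.808), Etv1 and Onecut3 (0.80), and Mnx1 and Lmx1a (0.736). Among 11102 genes, those most like each member over these 12 subgroups were Smarca1 (0.983), Uchl1 and Egfl7 for Etv1, Kcnh3 (0.982), Cryba4 and Cav2 for Onecut3, Ocrl (0.979), Abcc8 and Rbp4 for Nr4a2, and Gper1 (0.983), Pcp4 and Irs4 for Hhex. For Lmx1a they were Shisa9 (0.993), Cartpt and Slc38a11, for Fev Pnma2 (0.979), Spag1 and Agxt, for Foxq1 Plk3 (0.960), Ano1 and Rmdn2, and for Mnx1 Dusp2 (0.958), Slc18a2 and Vim. Slc18a2 encodes the vesicular transporter for monoamines such as serotonin. Pdx1 had no gene as close, the nearest being Rcan1 (0.898), Nacc2 and Tmem181a. The Sst cells, being 35, are not in these correlations. Those of Hhex thus rest mainly on the Ghrl cells, which held 29.6% of its UMIs in kept cells. All of these lay in the 17 Ghrl cells that were over the Sst limit too.

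In the bulk libraries, values are the authors' normalized counts, which compare libraries within a gene but not genes with each other. In bulk cells, fewer cells of a type and less RNA per cell cannot be told apart. Etv1 ranged from 326 to 1415 (median 1163) in the 6 CCK+ libraries and from 0.591 to 4.75 (median 2.31) in the 6 CCK- libraries. The groups did not overlap, and the means were 986 ± 425 and 2.43 ± 1.47 (SD, n = 6 each), a 406-fold ratio, or a log2 difference of 8.12 ± 0.39 (SE) for log2(normalized count + 1). Lmx1a ranged from 287 to 1220 (median 808) in CCK+ and from 13.6 to 33.4 (median 17.7) in CCK- libraries, with means of 802 ± 376 and 19.2 ± 7.27, a 41.7-fold ratio. Fev ranged from 121 to 465 (median 275) against 1.21 to 6.62 (median 4.45), a 68.1-fold ratio, and Onecut3 from 291 to 498 (median 410) against 5.96 to 15.6 (median 12.1), a 36.7-fold ratio. All 4 were thus higher in each CCK+ library than in any CCK- library.

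Mnx1 was low in both fractions, at 3.41 to 14.9 (median 10.6) in CCK+ libraries and at 0 in 4 of the 6 CCK- libraries, with 1.21 in mouse A and 2.44 in mouse F. Hhex was at 20.2, 23.6 and 33.2 in CCK+ cells of mice A, B and F and at 22.5, 17.1 and 12.3 in those of mice C, D and E, whereas CCK- cells gave 1.20, 2.63 and 14.9, and 4.81, 10.0 and 14.5. It was higher in CCK+ cells of 5 of the 6 mice, with mouse E as the exception, and the fractions overlapped. Sst did not overlap, at 2812 to 8925 in CCK+ and 18.2 to 128 in CCK- libraries. Nr4a2 was at 569, 167 and 247 in CCK+ cells of mice A, B and F and 751, 892 and 255 in those of mice C, D and E, and at 26.9, 17.6 and 480, and 168, 35.0 and 225 in CCK- cells. Mouse F was the exception to the order of the other 5, and the log2 difference was 2.26 ± 0.71 (SE).

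Pdx1 and Foxq1 overlapped widely between the fractions. Pdx1 ranged from 99.7 to 205 (median 181) in CCK+ and from 115 to 327 (median 226) in CCK- libraries, a log2 difference of -0.39 ± 0.25 (SE), and was higher in CCK+ cells of 1 of the 6 mice. Foxq1 ranged from 163 to 340 (median 234) against 76.0 to 254 (median 178), a log2 difference of 0.41 ± 0.22 (SE), and was higher in CCK+ cells of 5 of the 6 mice. Both genes were thus measured at overlapping levels in the fraction with far lower endocrine markers. The sum of 7 endocrine markers was 65765 to 239326 in CCK+ libraries and 1318 to 2739 in CCK- libraries, and no marker was at 0.

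**Figure D3:**
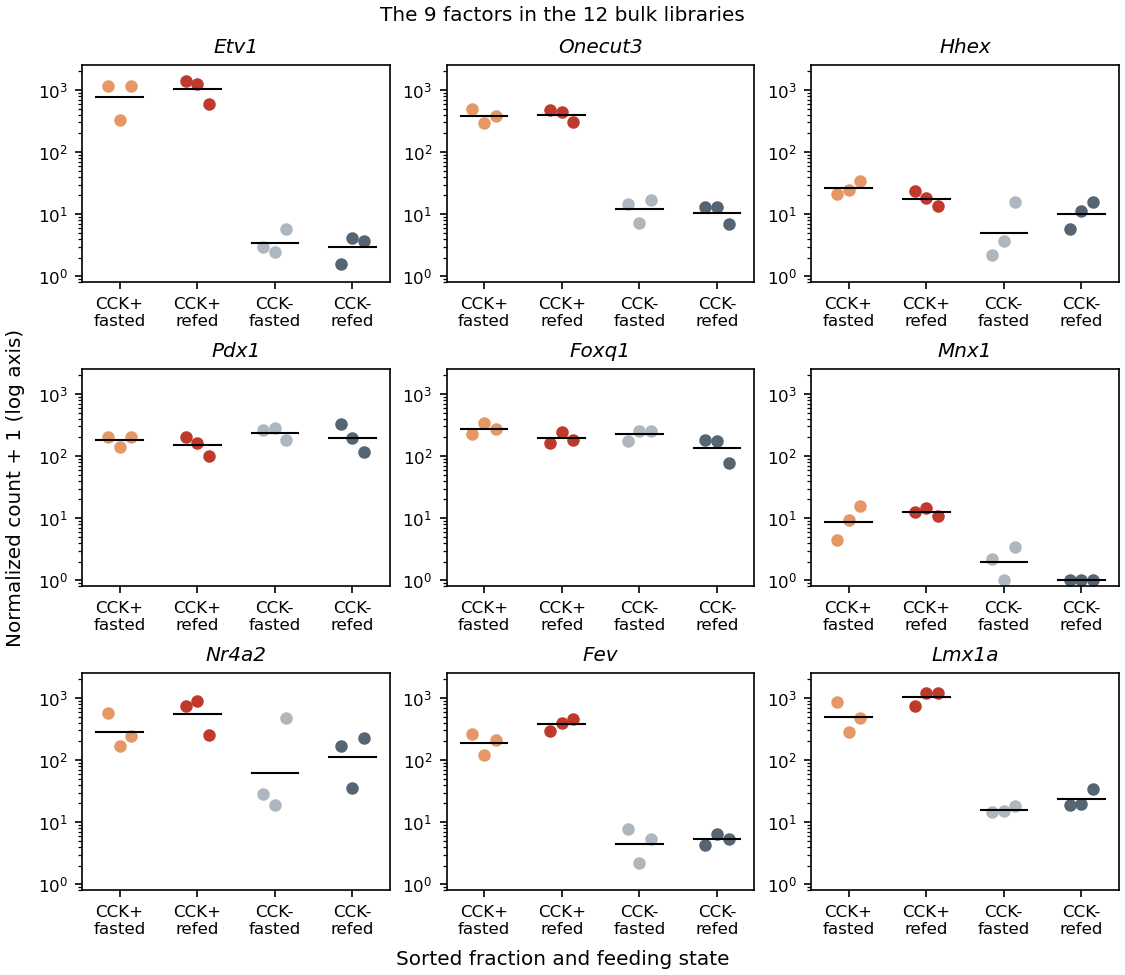
Normalized count + 1 (y axis, logarithmic) of the 9 genes in the 12 bulk libraries, by sorted fraction and feeding state (x axis); each point is 1 mouse and each line is the geometric mean of 3. Etv1, Onecut3, Mnx1, Fev and Lmx1a lay higher in every CCK+ library than in any CCK- library, while Pdx1 and Foxq1 overlapped.

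By the whole-table call (limma, Benjamini-Hochberg over 22042 genes, adjusted p under 0.05) 7 of the 9 members were higher in CCK+ cells, where 19.6% of all genes were, and 5 did not overlap, as did 9.74% of all genes. The members were chosen with this contrast in view, and nothing is read from these counts. The calls of Hhex and Nr4a2, the least steady, were kept in 12 and 10 of 21 alternative settings. All 10 immune markers were called higher in CCK+ libraries too, with sums of 4552 to 9953 against 470 to 1106 and Cd79a at 0 in 6 libraries. The part of immune cells in the members' levels was not tested.

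Refeeding passed the test for no member. In CCK+ cells, 0 of 9 members were called between refed and fasted mice by limma, where 2.55% of all genes were, and 2 were under 0.05 before adjustment, namely Lmx1a and Fev. Lmx1a was at 866, 287 and 483 in fasted mice A, B and F and at 750, 1202 and 1220 in refed mice C, D and E, so that mouse A overlapped with the refed mice. The log2 difference was 1.06 ± 0.36 (SE; 95% interval 0.29 to 1.83; limma adjusted p = 0.144). It rested on single libraries, as it was 1.47 without the CCK+ library of mouse A (adjusted p = 0.0477, limma) and 0.67 without the one from mouse B (limma adjusted p = 0.421). Fev was at 262, 121 and 208 in fasted and at 288, 397 and 465 in refed mice, without overlap, and its log2 difference was 1.00 ± 0.46 (SE; 95% interval 0.0067 to 1.99; limma adjusted p = 0.291). Nr4a2, the member that stimulation is known to induce, differed by 0.95 ± 1.00 (SE; limma adjusted p = 0.686), and Etv1 by 0.42 ± 0.55 (limma adjusted p = 0.758). Onecut3, at 0.07 ± 0.37 (SE), had the smallest difference of the 9. Mnx1 differed by 0.52, Pdx1 by -0.26, Foxq1 by -0.52 and Hhex by -0.55 (limma adjusted p = 0.425 to 0.769).

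In CCK- cells, 0 of 9 members were called by limma, where 1.23% of all genes were, and 1 was under 0.05 before adjustment. Foxq1 was at 175, 254 and 252 in fasted and at 181, 176 and 76.0 in refed mice, which overlap, with a log2 difference of -0.73 ± 0.31 (SE; limma adjusted p = 0.349). The differences of Mnx1 (-0.98 ± 0.62), Hhex (0.99 ± 0.69) and Nr4a2 (0.82 ± 1.00) had the largest errors, which the fit shares between the fractions for each gene. For the difference of the feeding effect between the fractions, 0 members were called and 0 were under 0.05 before adjustment, where 0.00454% of all genes were called. This is 1 gene, Gvin1, an interferon-induced GTPase named here after its value was seen, whose log2 feeding difference was 1.02 in CCK+ and 7.57 in CCK- cells (limma adjusted p = 0.000161).

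**Figure D4:**
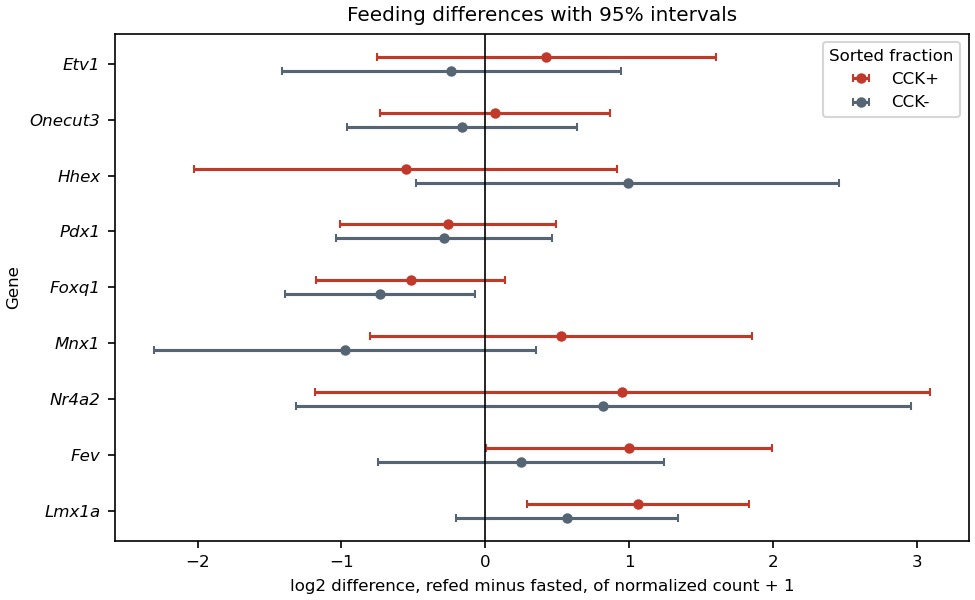
log2 difference of normalized count + 1 between refed and fasted mice (x axis) for the 9 genes (y axis) in CCK+ and CCK- cells; points are limma estimates from 3 mice per group and bars are their 95% intervals. The intervals of Lmx1a and Fev in CCK+ cells and of Foxq1 in CCK- cells left out 0, and none of the 3 passed after adjustment over 22042 genes.

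The CCK+ libraries also differed from each other in several marker sums. Among the sums given here, only the endocrine one did not overlap between fasted and refed CCK+ libraries. The sum of the endocrine markers was 65765 to 147516 in fasted and 176425 to 239326 in refed CCK+ libraries. Most of it was Chgb, at 54338 to 123321 in fasted and 152468 to 211125 in refed mice. Chgb, Scg3 and Pcsk1 did not overlap between fasted and refed CCK+ libraries, whereas Chga, Scg2, Cpe and Neurod1 did. The immune sum was 4552 to 9953 in fasted and 6622 to 8003 in refed CCK+ libraries. Enterocyte markers (6) summed to 157148 to 263595 and 106136 to 170407, Paneth markers (4) to 847 to 13140 and 5323 to 20499, and cycling markers (3) to 1247 to 2533 and 2461 to 3352. In CCK- libraries the cycling sum was 707 to 1111 fasted and 1566 to 2070 refed. By limma, 1 of the 3 cycling markers was called higher in CCK+ and 2 in CCK- cells, and 0 of the other markers named here were called. Their part in the feeding differences of the members was not tested. Mouse B had both the lowest endocrine and the highest immune sum. Set against Tph1, Lmx1a varied little, with 56.0, 57.5 and 49.5 normalized counts per 1000 of Tph1 in mice A, B and F and 64.2, 60.9 and 57.1 in mice C, D and E. The highest ratio was 1.30 times the lowest, whereas the highest level of Lmx1a was 4.25 times the lowest. For Fev per 1000 of Tph1 the span was 1.45-fold (16.9 to 24.6), against 3.85-fold for its level. The same held against Chga, per 1000 of which Lmx1a spanned 1.30-fold (72.7 to 94.3) and Fev 1.36-fold (25.2 to 34.2). Chga was itself far higher in the Tph1 cells than in the other droplet groups, so it does not stand for EECs at large here. Etv1 per 1000 of Chga spanned 4.92-fold (37.2 to 183). Mnx1 per 1000 of Tph1 spanned 7.48-fold, more than its level (4.35-fold). Foxq1 did not keep a steady ratio to Tph1, with an 8.06-fold span (8.45 to 68.1) against 2.09-fold for its level. Etv1 per 1000 of Cck spanned 2.68-fold (21.5 to 57.5) and Etv1 itself 4.34-fold, while for Onecut3 both spans were alike, at 1.68-fold and 1.71-fold. Hhex per 1000 of Sst spanned 3.70-fold, more than Hhex itself (2.70-fold). These ratios are a description of 6 libraries and were not tested.

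**Figure D5:**
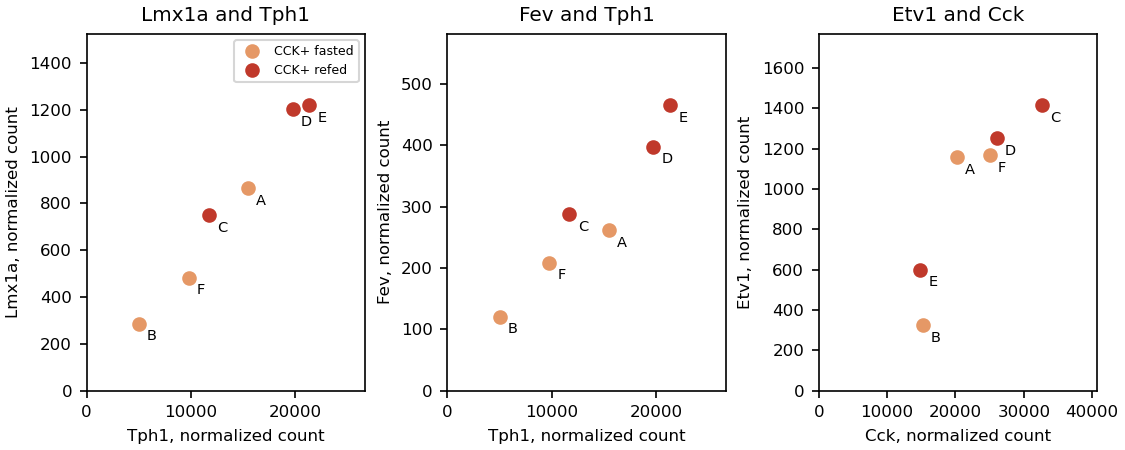
Normalized counts of Lmx1a and Fev against Tph1, and of Etv1 against Cck, in the 6 CCK+ libraries (both axes linear from 0; letters are mice). Lmx1a per 1000 of Tph1 stayed between 49.5 and 64.2, Fev between 16.9 and 24.6, and Etv1 per 1000 of Cck between 21.5 and 57.5, with mouse B lowest.

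Relatives of the members and general endocrine factors were read from lists chosen with earlier results of these data known. Of all 22042 genes, 4324 were called higher in CCK+ cells and 3107 lower. Of 18 pan-endocrine factors, 16 were called higher in CCK+ cells and 0 lower, and the median log2 difference was 5.05, against 0.09 over all 22042 genes and 2.89 over the 9 members. Nkx2-2 (7.06), Isl1 (6.59) and Rfx6 (6.56), all factors of endocrine differentiation, were highest, and Scrt1 (0.86), Neurog3 (1.44) and Rfx3 (2.29) were lowest, the first 2 of these without a call. Of the 13 genes listed as relatives, 8 were called higher and 3 lower, with a median of 0.58. That list also holds Gata2, Gata3, Gata4 and Gata6, zinc-finger factors of a family to which no member belongs. The ETS-domain factor Etv5 (5.68) and the nuclear receptors Nr4a1 (5.24) and Nr4a3 (3.90) were highest, and Gata6 (-0.75), Gata4 (-0.65) and Onecut2 (-0.52), the closest relative of Onecut3, were lowest. Onecut2 was found in all droplet groups, at 1.87 UMIs per 10000 in the Cck cells, 2.31 in the Tph1 cells, 1.80 in the Gip, Ghrl or Sst cells and 1.16 in the rest, unlike Onecut3. Lmx1b, the closest relative of Lmx1a, had 5 UMIs in the Tph1 cells. Of 8 activity-induced genes 6 were called higher, with Egr3 (3.77), Junb (1.17) and Ier2 (1.09) highest and Atf3 (-0.16), Fos (-0.15) and Fosb (0.61) lowest. No gene of these 3 lists was called for feeding in either fraction or for the difference between them by limma, with median log2 differences in CCK+ cells of 0.53 (pan-endocrine), 0.37 (relatives) and 0.26 (activity-induced), against 0.42 for the members and 0.01 for all genes.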

How the data were processed

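The 9 members and all gene lists were chosen with earlier results of these data known. Droplet counts are deposited UMI counts per gene and barcode, made by the authors with Cell Ranger 2.0.1 on the mm10 transcriptome, without normalization and before cells were called. Bulk values are a signal that the authors made by dividing Salmon 1.6.0 gene counts (GRCm39 transcriptome, after Trim Galore 0.6.7) by DESeq2 normalization factors. Whole reads could not be recovered from it, and libraries summed to 7061155 to 11371114, which is not a read depth. The records title all bulk samples CCK+, whereas 2 of the 4 groups are CCK- by their cell type labels, which were used. Each bulk library held cells of 1 mouse by the study's methods, and letters shared by the fractions were taken as mice. The residuals of CCK+ and CCK- libraries of the same mouse correlated at 0.0463 to 0.0650, those of other pairs at -0.0455 to -0.00973.

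Bulk genes were tested with limma 3.58.1 (R 4.3.3) on log2(normalized count + 1), 1 mean per group, a mean-variance trend and Benjamini-Hochberg adjustment over 22042 genes, and called at an adjusted p under 0.05. Droplet data were processed with Python 3.11.15, scipy 1.17.1 and scanpy 1.11.5, and the automatic Scrublet threshold called 0 cells. Each cell went to the first limit met, and 505 cells met more than 1. The rest was split by Chga + Chgb (20 UMIs per 10000), Dclk1 + Trpm5 (5), Lyz1 + Defa17 (500), Muc2 + Guca2a (20) and Fabp1 + Reg1 (100). Named genes were the members, for each member the 3 genes of highest Pearson r among genes with at least 100 UMIs, list genes that passed a feeding test (at most 5 per list), and the 3 highest and 3 lowest per list for CCK+ against CCK-. Scripts were tested on simulated data.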

Additional observations from a re-analysis of the deposited data

Results flagged for a closer look

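Outside the cells that were kept, 930 barcodes with more than 1000 genes had at least 10% of UMIs on mitochondrial genes and entered no comparison. Placed in groups by the same limits, these held 6 members, in the group where each was highest among kept cells, at levels whose intervals lie above that of 3 UMIs (0.138 UMIs per 10000 in the Cck group and 0.0486 in the Tph1 group). In 37 such barcodes of the Cck group, Etv1 stood at 2.30 UMIs per 10000 (95% Poisson interval 1.71 to 3.03), Onecut3 at 1.84 (1.31 to 2.50) and Nr4a2 at 0.828 (0.491 to 1.31). In 162 barcodes of the Tph1 group, Foxq1 stood at 1.80 (1.48 to 2.16), Lmx1a at 1.12 (0.869 to 1.41) and Fev at 0.745 (0.545 to 0.993). In the 713 barcodes of the rest, Etv1 was at 0.0374, Onecut3 at 0.0316 and Lmx1a at 0.106.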

How the results depend on the processing

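In the droplet data, the group in which each of the 9 members was highest did not change under 9 alternatives (500 or 1500 genes as the minimum, barcodes over the Cell Ranger 2 limit alone, halved or doubled limits, cells over more than 1 limit or with high doublet scores left out, means over cells, thinning). Of the levels in the highest group of each member, that of Mnx1 moved most (0.0309 to 0.0673), and that of Lmx1a ranged from 1.20 to 1.93. Lower levels moved further, as that of Etv1 in the rest (0.0171 to 0.0651).

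In the bulk data, 561 genes were called for feeding in CCK+ cells, 272 in CCK- cells and 1 for the difference. With quantile normalization these were 850, 165 and 2, without the mean-variance trend 119, 66 and 2, and without both libraries of mouse B, a setting chosen after seeing the data, 127, 85 and 0. With only the 2 groups compared they were 0 in CCK+ and 63 in CCK- cells, and a pseudocount of 10 gave 0 for the difference. Leaving out each library in turn gave 103 (without CCK+ of mouse D) to 876 (CCK+ of mouse A) in CCK+ cells, 79 (CCK- of mouse D) to 268 (CCK+ of mouse B) in CCK- cells, and 1 to 6 (CCK- of mouse E) for the difference. The members called were 0 to 1 in CCK+ cells, the 1 being Lmx1a without fasted mouse A, and 0 in the other 2 contrasts. With the mouse as a replicate block the counts were 576, 283 and 1, and no member's call changed. In fasted libraries alone, 2169 genes and 4 members were called between CCK+ and CCK- cells. Hhex and Nr4a2 kept their call in 12 and 10 of 21 alternatives. The only members without that call in the full data were Pdx1 and Foxq1, and 5 to 7 members were called when single libraries were left out. The causes were not tested.

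Some uncalled feeding differences changed sign in these settings. Members not named below for a contrast kept their sign there in every setting that held them. In CCK+ cells the log2 difference without the CCK+ library of mouse B, or without both of its libraries, was -0.19 for Etv1 and -0.13 for Onecut3. Over the libraries left out in turn, Etv1 ranged from -0.19 to 0.81, Onecut3 from -0.13 to 0.26 and Pdx1 from -0.49 to 0.029. In CCK- cells the ranges were -0.50 to 0.20 (Etv1), -0.54 to 0.14 (Onecut3), -0.66 to 0.089 (Pdx1), -0.059 to 2.29 (Nr4a2) and -0.27 to 0.63 (Fev), and without both libraries of mouse B the last 2 were -0.059 and -0.27. For the difference between fractions they were -0.075 to 0.60 (Onecut3), -0.35 to 0.40 (Pdx1), -0.19 to 0.43 (Foxq1) and -1.34 to 1.01 (Nr4a2), and Pdx1 was -0.14 with quantile normalization and -0.28 without both libraries of mouse B.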
